A study of Homo sapiens with 4 samples.

Results

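CDCP1 encodes CUB domain-containing protein 1, a surface glycoprotein of many cancer cells, and its chromatin was examined in A375 melanoma cells. Of 91107 distinct H3K27ac regions in the authors' deposited table, 19 carried CDCP1 in the column of assigned genes, and all 19 are described here in position order. No region was shared with another gene. A further 31 regions with any base within 200 kb of the span of the CDCP1 regions serve as local context. The regions were chosen by the assigned gene, and the gene was picked from the fold changes and adjusted p of this same comparison, so the values below are a description and no test of the locus was made.

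The mark H3K27ac, a histone H3 acetylation typical of promoters and enhancers in use, was mapped by ChIP-seq. A375 is an established human melanoma line with an activated BRAF kinase. Per the labels, 2 libraries came from A375 cells kept for 48 hours in the isopropanol vehicle and 2 from cells kept as long in 1 mM octanoate, a medium-chain fatty acid, which makes 4 in all. All are of the 1 cell line, and nothing in the labels says whether the 2 libraries of a group came from separate cultures. The data give a mean level, a log2 fold change with its standard error and p for each region, with no value per library, so the spread between libraries and their depth are unknown. The numerator of the fold change is not named, and changes are called positive or negative for that reason. In a bulk profile, more cells carrying the mark and more mark per cell cannot be told apart.

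CDCP1 spans the membrane once, with CUB domains outside and tyrosines in a short tail that SRC family kinases phosphorylate. The phosphorylated tail recruits the kinase PRKCD, and the outer part can be shed by the proteases matriptase and plasmin. In cancer cells the protein is known for loss of attachment, invasion and survival in suspension, and it has been tied to fatty acid oxidation through restraint of acyl-CoA synthetases. H3K27ac over a gene body and upstream of it is commonly read as a set of enhancers, and the assignment of a region to CDCP1 rests on nearness to its start and does not show that the region acts on it.

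The promoter of CDCP1 is shown first because its start lies at the edge of an H3K27ac region, beside those of TMEM158 and EXOSC7, the nearest genes on either side whose starts overlapped a tested region. Each line holds 250 bases before to 50 after the start in the RefSeq promoter table, in GRCh38.p14, written 5′ to 3′ along the gene. For CDCP1 that start is 45146378, whereas the RefSeq gene table ends the gene at 45146482 and the distances of the authors' deposited table imply a start at 45146423. The CDCP1 window is chr3:45146329-45146628 on the minus strand, that of TMEM158 is chr3:45226238-45226537 on the minus strand and that of EXOSC7 is chr3:44975994-44976293 on the plus strand. Capitals mark the GC box GGGCGG on either strand, where matches may overlap.
CDCP1: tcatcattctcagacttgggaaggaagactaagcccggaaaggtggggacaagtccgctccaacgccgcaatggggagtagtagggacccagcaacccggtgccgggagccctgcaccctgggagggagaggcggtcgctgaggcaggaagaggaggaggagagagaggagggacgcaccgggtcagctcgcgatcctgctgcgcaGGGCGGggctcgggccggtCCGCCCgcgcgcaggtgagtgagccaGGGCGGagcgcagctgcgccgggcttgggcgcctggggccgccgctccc
TMEM158: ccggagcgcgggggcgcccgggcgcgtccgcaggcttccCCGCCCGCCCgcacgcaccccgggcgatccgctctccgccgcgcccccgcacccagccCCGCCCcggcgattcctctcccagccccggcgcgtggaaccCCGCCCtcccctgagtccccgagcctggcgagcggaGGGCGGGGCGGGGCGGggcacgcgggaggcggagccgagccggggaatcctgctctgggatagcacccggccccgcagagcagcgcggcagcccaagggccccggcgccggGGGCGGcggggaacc
EXOSC7: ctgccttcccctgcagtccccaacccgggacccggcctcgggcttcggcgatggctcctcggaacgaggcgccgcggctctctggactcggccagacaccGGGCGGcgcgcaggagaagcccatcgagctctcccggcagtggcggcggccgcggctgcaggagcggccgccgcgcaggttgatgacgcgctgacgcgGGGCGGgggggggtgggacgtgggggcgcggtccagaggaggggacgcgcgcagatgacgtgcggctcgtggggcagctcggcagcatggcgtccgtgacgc

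The CDCP1 window holds 3 GC boxes, the TMEM158 window 8 and the EXOSC7 window 2, against at least 1 in 45.0% of 35116 promoter windows of this length. The GC content of the CDCP1 window is 70.3%, that of TMEM158 82.7% and that of EXOSC7 76.0%, where the median of all windows is 58.7%. Searched on both strands, the AP-1 motif TGANTCA has no match in these 3 windows and has one in 7.71% of all windows. The same holds for the E-box CACGTG, found in 7.26% of all windows. The TATA box TATAAA, which occurs in 11.5% of all windows, has no match either. Nor does the direct repeat bound by PPAR, written as a pair of AGGTCA with any 1 base between, which is in 0.0228% of all windows. The H3K27ac region at the CDCP1 start in the authors' deposited table takes in 97 of the 300 bases of this window, a count that would be lower for a window set at either of the other starts, whereas the regions at TMEM158 and EXOSC7 take in all 300.

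The 19 CDCP1 regions of the authors' deposited table ran over 100.9 kb, from 45084909 to 45185774 on chromosome 3 of hg38, the build in the submitters' processing notes, and 15 of them lay in the gene body. Those 15 covered 71.8% of the 64206 bases that RefSeq gives the gene. All 19 were positive in the authors' deposited table, with log2 fold changes from 0.46 to 1.25 and a median of 0.87. Of all regions in the authors' deposited table, 73.7% were positive and the median was 0.28. The authors gave an adjusted p to 11 of the 19, and regions with one are called tested here. These 11 had a median log2 fold change of 0.78, beside 0.32 over all tested regions of the authors' deposited table. Of the 11, 5 had in the authors' deposited table an adjusted p under 0.05, all positive, where the background was 1.67% of 36436 tested regions. An unadjusted p under 0.05 was given to 9 of the 11 in the authors' deposited table, against 18.4% of tested regions.

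**Figure D1:**
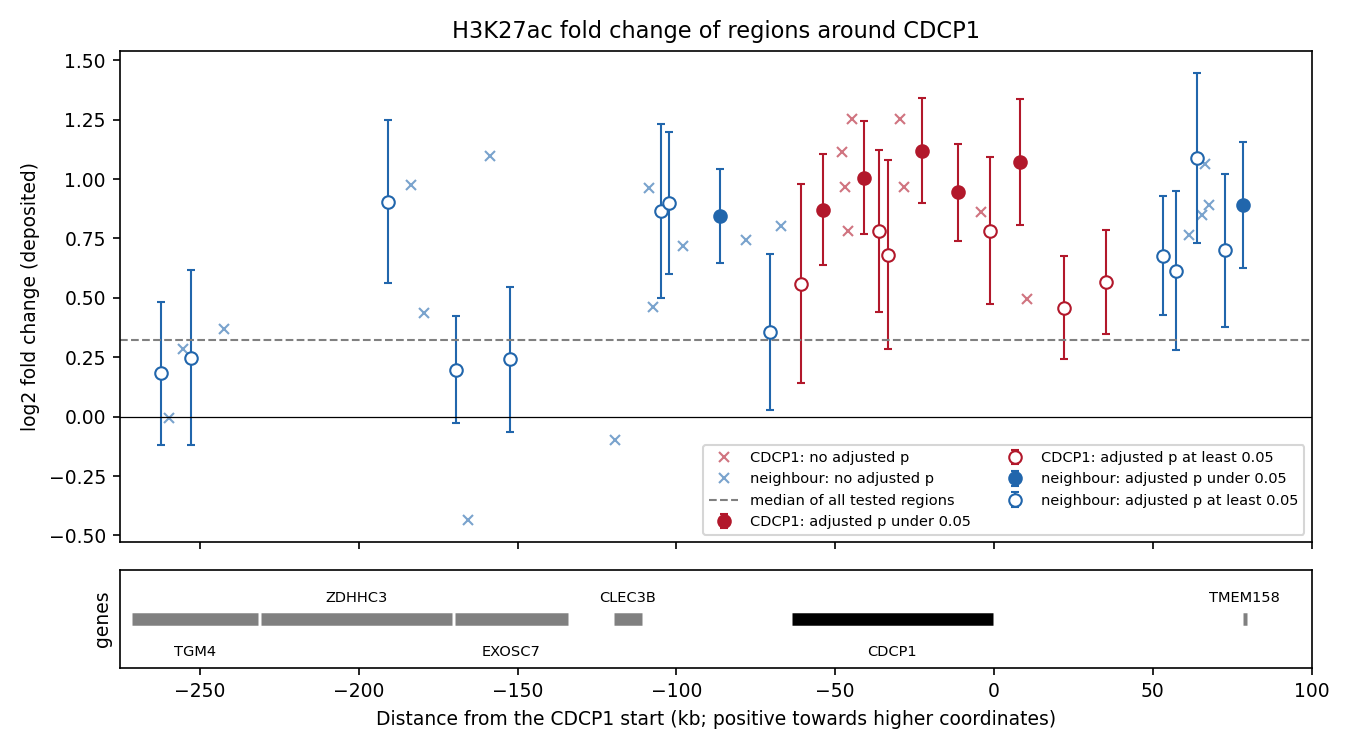
Deposited log2 fold change (points) with the standard error of the deposited model (bars) for the 19 CDCP1 regions in red and 31 neighbours in blue, by distance from the CDCP1 start in kb, with the gene bodies below. Filled points have an adjusted p under 0.05, crosses have none computed, and the dashed line is the median of 0.32 over tested regions, below which no CDCP1 region lies.

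The 2 smallest p of the locus belonged to wide, adjoining regions in the part of the gene nearest the start. The region from 45119352 to 45128019, 18404 bases from the start, had a log2 fold change of 1.12 ± 0.22 (standard error) and an adjusted p of 0.000714 in the authors' deposited table, a ratio of 2.17. Its p ranked 22 among the tested regions of the authors' deposited table. The adjoining region from 45128826 to 45141162, at 12336 bases the widest of the locus and 5261 bases from the start, had 0.95 ± 0.20 (standard error) and an adjusted p of 0.00277 in the authors' deposited table. Both had a high mean level, 214 and 213 in the authors' normalized units, above about 95.5% of the tested regions of the authors' deposited table. That level grows with width. Per kb they had 24.7 and 17.3, 1 above and 1 below the median of 19.3 over all tested regions of the authors' deposited table.

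Towards the other end of the gene lay 2 more calls. The region from 45102515 to 45108582 had a log2 fold change of 1.01 ± 0.24 (standard error), a mean level of 139 and an adjusted p of 0.00768 in the authors' deposited table. The region from 45088371 to 45096516, 49907 bases from the start, had 0.87 ± 0.23 at a mean level of 150 and an adjusted p of 0.0245 in the authors' deposited table. Together with those near the start, these 4 wide regions occupied most of the covered length of the gene body.

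The fifth call lay upstream of the start. It ran from 45152794 to 45156119, 6372 bases upstream, with a log2 fold change of 1.07 ± 0.26 (standard error) at a mean level of 64.3 and an adjusted p of 0.0112 in the authors' deposited table. The 2 tested regions farther upstream had smaller fold changes than the 5 calls. That from 45164859 to 45172133 had 0.46 ± 0.22 at a level of 186, and that from 45177408 to 45185774 had 0.57 ± 0.22 at a level of 137, with adjusted p of 0.238 and 0.153 in the authors' deposited table.

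The region at the CDCP1 start, from 45143758 to 45146425, was not a call. It had a log2 fold change of 0.78 ± 0.31 (standard error), an unadjusted p of 0.0116 and an adjusted one of 0.164 in the authors' deposited table. Its end lay 2 bases beyond the start that the distances of the authors' deposited table imply. The mean level of 47.0 was below the median of 87.8 of the 9996 tested regions that overlapped a gene start in the authors' deposited table, at percentile 18.2, while the fold change was at percentile 95.9 of the same regions. On the scale of level per kb, the start region had 17.6 in the authors' normalized units, where the wide pair in the gene body had 17.3 and 24.7, and the median at starts in the authors' deposited table was 25.8.

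**Figure D2:**
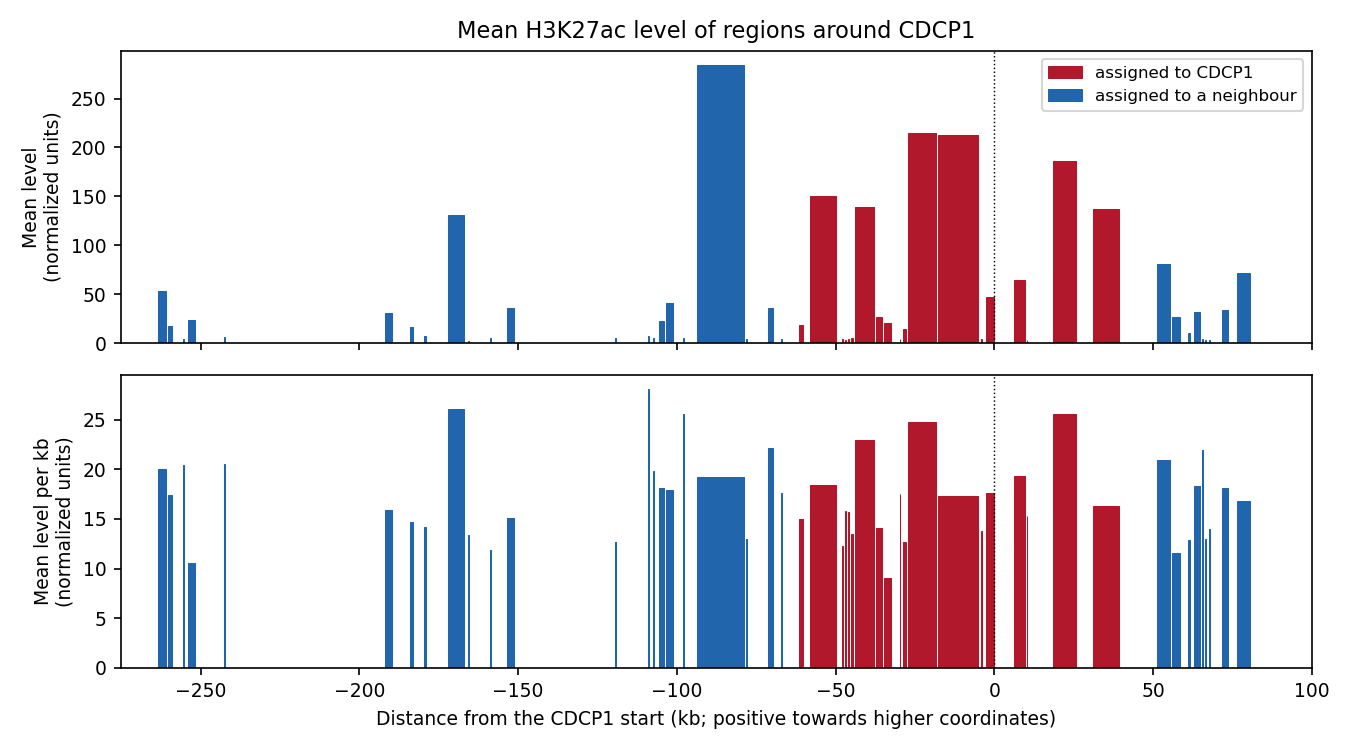
Mean level of each region in the authors' normalized units (upper) and the same per kb of region width (lower), by distance from the CDCP1 start in kb, with CDCP1 regions in red and neighbours in blue. Each bar is 1 region drawn to its width, and the highest CDCP1 bar, at 214, stands within the gene and not at the start.

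The 3 other tested regions of the gene body were weaker and less precise. They had log2 fold changes of 0.56 ± 0.42 (45084909 to 45086155), 0.78 ± 0.34 (45109306 to 45111174) and 0.68 ± 0.40 (45111785 to 45114029, all standard errors) at mean levels of 18.7 to 26.4 in the authors' deposited table. The 8 regions without an adjusted p had mean levels from 3.16 to 14.1, held 3.37% of the summed level of the locus, and had log2 fold changes from 0.49 to 1.25 in the authors' deposited table. Their standard errors were large, from 0.45 to 0.89, and the highest value of the locus, 1.25, was among them. Across all regions without an adjusted p in the authors' deposited table, 64.6% were positive.

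The tested CDCP1 regions were compared with each other by whether their fold changes lay within the sum of both standard errors. This held for 49 of 55 pairs in the authors' deposited table. With standard errors from 0.20 to 0.42 the rule is wide. No like share was computed for other regions, so the count does not show that the locus is uniform. The 6 pairs farther apart each involved one of the 2 farthest upstream regions, set against calls of the gene body or the call upstream. The regions share the same libraries, so they do not repeat the comparison.

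Fold changes were also set beside those of other regions of like level, since the standard error falls with level. Tested regions of the authors' deposited table were split by mean level into 20 bins of like size, in which the 5 calls lay at percentiles 99.0 to 99.9 of log2 fold change. The calls were picked by their p, which rests on fold change over standard error, so their high percentiles follow largely from that choice. The 6 other tested CDCP1 regions lay between percentiles 72.2 and 93.9 of their bins in the authors' deposited table. Among tested regions with mean levels in the range of the 5 calls, 64.3 to 214, the share called in the authors' deposited table was 2.17%. Width went with level: 6 of the 11 tested CDCP1 regions were at least 5000 bases wide and 4 of these were calls, where 15.5% of all tested regions of the authors' deposited table were that wide and 3.64% of those were calls.

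**Figure D3:**
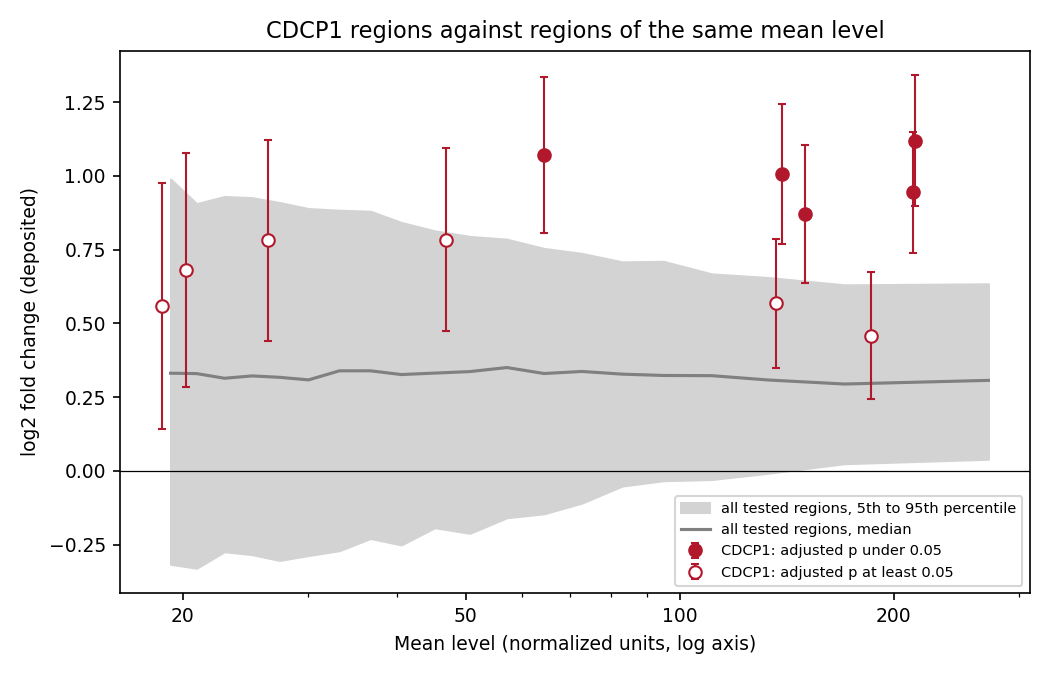
Deposited log2 fold change with its standard error for the 11 tested CDCP1 regions, against mean level in the authors' normalized units on a log axis. The grey band runs from the 5th to the 95th percentile of all tested regions in bins of level and the grey line is their median. The 5 filled points, picked by an adjusted p under 0.05, lie above the band, a place that follows largely from that choice.

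The fold changes of the whole table were shifted upwards, since in the authors' deposited table the median over tested regions was 0.32 and 87.3% of them were positive. With that median subtracted and the authors' standard errors kept, 0 of the 11 CDCP1 regions passed an adjusted p of 0.05, where 0.124% of tested regions of the authors' deposited table did. At an unadjusted p under 0.05 from the same centred values, 5 of the 11 passed, against 5.73% of tested regions of the authors' deposited table. The smallest centred adjusted p at the locus was 0.126, for the region from 45119352 to 45128019, whose centred log2 fold change computed from the authors' deposited table was 0.80. All 11 tested regions kept a positive value after centring, from 0.14 to 0.80, computed from the authors' deposited table. A difference in scaling between the libraries and a change of the mark over the whole genome cannot be told apart in these data.

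**Figure D4:**
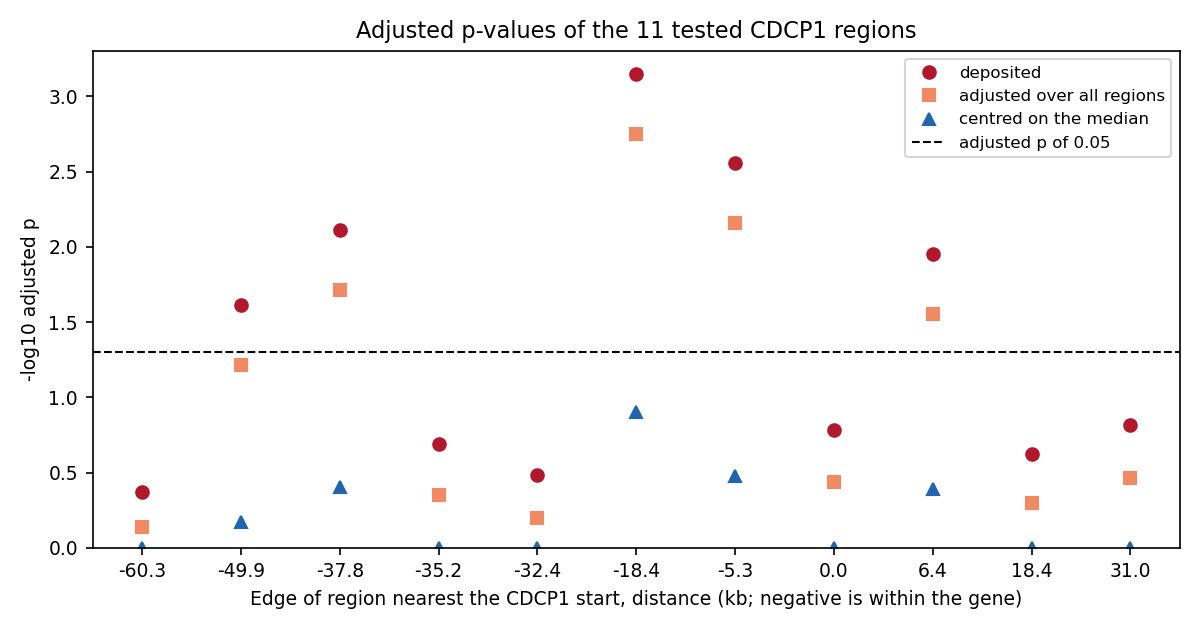
The negative log10 adjusted p of the 11 tested CDCP1 regions by distance of their nearest edge from the start in kb, as deposited (circles), adjusted over all distinct regions (squares) and after centring on the median of tested regions (triangles). The dashed line is 0.05, which 5 circles, 4 squares and 0 triangles pass. The shares passing are 1.67% and 0.124% of all tested regions for circles and triangles, and 0.274% of all distinct regions for squares.

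The surroundings of the gene were examined to see how far the positive values reached. Of the 31 neighbouring regions of the authors' deposited table, 14 were tested and 2 were calls, 14.3% against the background of 1.67%. Their median log2 fold change was 0.72 in the authors' deposited table, 28 of 31 were positive, and the lowest of the 3 negative ones, at EXOSC7, was -0.43 ± 1.10 (standard error). The median was 0.42 with a window of 500 kb and 0.40 after centring, computed from the authors' deposited table. After centring, 0 of the 14 passed and 3 had an unadjusted p under 0.05 in values computed from the authors' deposited table.

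One call lay beyond the far end of CDCP1 and was assigned to CLEC3B, which encodes tetranectin, a secreted lectin that binds plasminogen. It ran from 45052788 to 45067621 and, with a mean level of 285, had the highest level of the window, a log2 fold change of 0.85 ± 0.20 (standard error) and an adjusted p of 0.00656 in the authors' deposited table. The small region nearest the CLEC3B start, 738 bases away, had a mean level of 5.72 and a log2 fold change of -0.10 ± 0.72 in the authors' deposited table. The 4 tested CLEC3B regions had log2 fold changes from 0.36 to 0.90 in the authors' deposited table.

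The other neighbouring call lay at the start of TMEM158, which encodes a membrane protein first described as a gene raised by RAS signalling. It ran from 45222725 to 45227010, with a log2 fold change of 0.89 ± 0.27 (standard error) and a mean level of 72.0, and its adjusted p of 0.0494 was just under the threshold in the authors' deposited table. All 9 TMEM158 regions were positive, with tested values from 0.62 to 1.09, in the authors' deposited table. The tested TMEM158 region with the highest value, from 45209479 to 45211239, had 1.09 ± 0.36 and an adjusted p of 0.0825 in the authors' deposited table.

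Farther out the values were lower. The shared start of ZDHHC3, a protein palmitoyltransferase, and EXOSC7, a subunit of the RNA exosome, had a log2 fold change of 0.20 ± 0.23 (standard error) at a mean level of 131 in the authors' deposited table. One ZDHHC3 region, from 44954669 to 44956576, had 0.90 ± 0.34 with an adjusted p of 0.144 in the authors' deposited table. The 2 tested regions of TGM4, a transglutaminase gene of the prostate, had 0.18 and 0.25 in the authors' deposited table. The outermost region inside the 200 kb window was one of these, 199.2 kb away with 0.18 ± 0.30, and the first outside it was at LARS2, a mitochondrial leucyl-tRNA synthetase gene, 202.2 kb away with 0.28 ± 0.26 in the authors' deposited table. Of 26 regions between 200 and 500 kb away, 15 were tested in the authors' deposited table, with a median log2 fold change of 0.22 and 0 calls, and 2 had an unadjusted p under 0.05. With 1.67% and 18.4% as the background of the authors' deposited table, so few regions do not set this flank apart by either count.

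Between CLEC3B and TMEM158, 20 consecutive tested regions of the authors' deposited table, including all 11 of CDCP1, had fold changes above the median of 0.32. They spanned 186.0 kb, from 45040981 to 45227010, with values from 0.36 to 1.12 in the authors' deposited table, and held all 7 calls of the window. The next tested regions lay 45.7 kb away at EXOSC7, with 0.24, and 161.0 kb away at LARS2, with 0.28, in the authors' deposited table. This way of bounding the stretch was chosen after the values were seen. In the whole of the authors' deposited table there were 7453 such stretches with a median length of 2 regions, of which 8 were at least as long and 2 held at least 7 calls, this stretch counted in both. CDCP1 was picked from these same fold changes and adjusted p, and its calls are among the 7. Both counts therefore follow in part from that choice.

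CDCP1 was then placed among genes by the number of called regions assigned to each. It had 5 calls, as did HMGA2, which encodes an architectural chromatin protein, and 5 was the highest count among 15191 genes with a tested region in the authors' deposited table. As CDCP1 was picked from these same values, its place follows in part from that choice. HMGA2 had 22 tested regions with a median log2 fold change of 0.26 in the authors' deposited table, whereas the 11 of CDCP1 had 0.78. GRHL3, an epithelial transcription factor gene, and NEK2, a centrosomal kinase gene, had 4 calls each among 7 tested regions, with medians of 0.91 and 1.06 in the authors' deposited table. Another 9 genes had 3, among them PTPN1, POU5F1B, RAP1GAP2, ALG10, CHRNA9, CUL2, AREG and PDE2A, and 536 genes had at least 1 call in the authors' deposited table. After centring, CDCP1, HMGA2 and GRHL3 had 0 calls and NEK2 had 1, computed from the authors' deposited table.

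Likeness to CDCP1 was measured over 1485 genes with 6 to 22 tested regions in the authors' deposited table, as the distance in the share of regions called and in their median log2 fold change, each divided by its SD over these genes. The nearest was CHRNA9, a nicotinic receptor subunit gene, with 42.9% called and a median of 0.87 in the authors' deposited table, where CDCP1 had 45.5% and 0.78. ALG10, an enzyme of protein glycosylation, CUL2, a ubiquitin ligase scaffold, RAP1GAP2, a regulator of the small GTPase RAP1, and PTGES, a prostaglandin E synthase, followed. CUL2 had 3 calls among 6 tested regions, and the shares of ALG10, RAP1GAP2 and PTGES were 42.9%, 37.5% and 33.3% in the authors' deposited table. Medians were 0.94 for ALG10, 0.91 for CUL2, 0.85 for RAP1GAP2 and 0.73 for PTGES in the authors' deposited table. A median at least as high as that of CDCP1 was found for 10 other genes of the 1485 in the authors' deposited table, and the median over all these genes was 0.29.

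**Figure D5:**
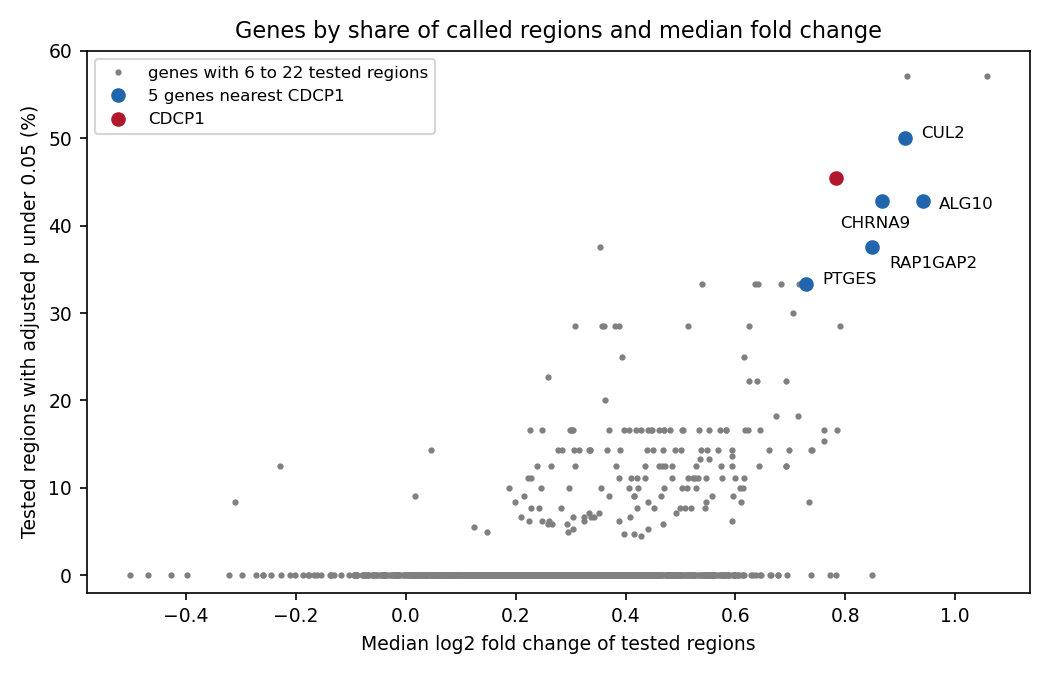
Share of tested regions with a deposited adjusted p under 0.05, in percent, against the median log2 fold change, for genes with 6 to 22 tested regions (grey). CDCP1 (red) stands at 45.5% and 0.78, beside the 5 genes nearest to it by likeness (blue).

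Genes of the pathway were taken from lists set by known ties to CDCP1. Earlier results of these data were known when the lists were chosen, so their values are a description only. Among 13 genes of SRC signalling partners (the kinases SRC, YES1, FYN, LYN and PRKCD, the receptors EGFR, ERBB2, ITGB1 and CD6, the cadherins CDH2 and CDH3 and the syndecans SDC1 and SDC4), 76 regions were tested and 0 were calls in the authors' deposited table, with 13 at an unadjusted p under 0.05. Both counts are near the shares of all tested regions, 1.67% called and 18.4% at that unadjusted p in the authors' deposited table. The median log2 fold change of those tested regions was 0.30 in the authors' deposited table, beside 0.32 for all tested regions. CDH2 alone gave 28 of the 76, with a median of 0.16, so the pooled values lean on that gene. Medians of the other genes with tested regions ran from 0.13 for SRC to 0.61 for LYN in the authors' deposited table. At the start of SRC, the kinase that phosphorylates CDCP1, the value was 0.21 ± 0.21 (standard error), and at the start of PRKCD, which docks on its tail, 0.31 ± 0.21 in the authors' deposited table. CDH3, the P-cadherin gene, had no start region, and its 4 tested regions had a median of 0.61 in the authors' deposited table. CD6, a receptor of T cells that binds CDCP1, had 1 region and no tested one in the authors' deposited table.

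The 7 genes of CDCP1 cleavage and plasmin formation had 26 tested regions, 0 calls and 11 regions at an unadjusted p under 0.05 in the authors' deposited table, where 18.4% of tested regions reached that level. Their median log2 fold change was 0.44, and 25 of 26 were positive in the authors' deposited table. The single tested region of ST14, the gene of matriptase, lay 37895 bases from its start with 1.21 ± 0.42 (standard error) and an adjusted p of 0.107 in the authors' deposited table. PLAUR, the urokinase receptor gene, had a median of 0.78 over 3 tested regions, and PLAT, a plasminogen activator gene, 0.07 over 3 in the authors' deposited table. PLG, the plasminogen gene, had no tested region.

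The 9 lipid use genes, acyl-CoA synthetases and carnitine palmitoyltransferases, had 24 tested regions, 2 calls, 7 regions with an unadjusted p under 0.05 and a median log2 fold change of 0.53 in the authors' deposited table. Over all tested regions of the authors' deposited table these were 1.67% called, 18.4% with that unadjusted p and a median of 0.32. Both calls were assigned to ACSL5, which encodes a synthetase that activates long-chain fatty acids, and lay 8165 and 13877 bases from its start. The ACSL5 region on chromosome 10 from 112382182 to 112384927 had a log2 fold change of 1.29 ± 0.30 (standard error) and an adjusted p of 0.00651, and that from 112387894 to 112391400 had 1.22 ± 0.30 and 0.0119, all from the authors' deposited table. Once centred, 0 of the 2 passed, with adjusted p of 0.233 and 0.356 computed from the authors' deposited table. ACSL3 had 0.66 ± 0.23 at its start with an adjusted p of 0.0998, and ACSL4 0.57 ± 0.32 in the authors' deposited table. CPT1A, the gene of the gate enzyme of fatty acid entry into mitochondria, had 2 tested regions with a median of 0.52 and 0 calls in the authors' deposited table. CPT1B had no region assigned.

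The labelled cell type was checked against its markers at gene starts. SOX10, a melanocyte lineage factor, had a start region with a mean level of 774, at percentile 99.7 of tested starts. PMEL, a melanosome protein gene, had one of 269, at percentile 94.8 in the authors' deposited table. MITF had 98.4, at percentile 57.3, and MLANA, TYR and DCT had no region at their starts in the authors' deposited table. Of epithelial markers, the start shared by KRT8 and KRT18 had a mean level of 261, at percentile 94.5, in the authors' deposited table. EPCAM had one of 50.5, at percentile 20.6, and CDH1 had no start region. These levels grow with region width and were not set per kb.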

How the data were processed

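H3K27ac was profiled in 2 vehicle and 2 octanoate libraries of A375 cells, grouped by the treatment in the labels. The submitters' processing notes name Bowtie2, Picard, MACS2, featureCounts, DESeq2 and bedtools 2.29.1 with build hg38, with no role or order. The deposited table holds, per the file headers, a mean level (signal normalized by the authors, libraries and scaling not named), a log2 fold change with its standard error, a score (the test statistic), a p-value and an adjusted p-value. Whether region starts count from 0 or 1 is not given in the sources used here, and coordinates are as deposited. Exons, introns and region sequences were not analysed here.

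Lines repeating a region were merged, leaving 91107 regions from 95312 lines. An adjusted p-value of 1 was read as not computed. Benjamini-Hochberg adjustment over the rest returned the deposited values. Centred p-values used the two-sided normal distribution with the authors' standard errors, after tests on simulated data. The planned edgeR or DESeq2 fits need counts per library and were not run. Columns of single libraries left out numbered 0. Promoters came from RefSeq (GRCh38.p14). Genes named were CDCP1, its neighbours, the 3 pathway lists, the 5 most like genes and those with the most calls, and values of some single genes are not reported here. The members and lists were chosen with earlier results of these data known. Python 3.11.15, pandas 2.3.3 and scipy 1.17.1 were used.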

Additional observations from a re-analysis of the deposited data

How the results depend on the processing

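All values are computed from the authors' deposited table. Of 36 alternatives tried on counts above 0 and on medians, 22 left a count within 1.5 times, or a median within 1 SD over regions, of the value reported, and none turned the sign of a median. Part of that tally was fixed in advance. The level filters, at 10 and 50, could not drop a CDCP1 or neighbouring call, as all had mean levels of at least 64.3. Subtracting a median of 0.32 could not turn the sign of 0.87 or 0.72. The neighbour SD was 0.38, so neighbour medians of 0.42 and 0.40 counted as unchanged. The SRC partner and cleavage counts were 0 under every setting, each at least as strict or centred, which says nothing of their stability. The 5 CDCP1 calls became 3 at an adjusted p under 0.01, 3 where the log2 fold change also had to reach 1 in size, 4 when adjusted over all distinct regions and 0 after centring on the median of tested regions. Centring on the tested regions 200 to 500 kb away, chosen after the data were seen, left 1. The 2 neighbouring calls became 1 under 0.01, 1 over all distinct regions, 0 with the minimum fold and 0 after centring. The 2 lipid use calls became 1 under 0.01, 1 at a mean level of at least 50 and 0 after centring. The CDCP1 median log2 fold change of 0.87 became 0.55 after centring on all tested regions, 0.57 on those of chromosome 3 and 0.56 on those with a mean level from 100 to 250, the last chosen after the data were seen. The neighbour median of 0.72 became 0.42 with a window of 500 kb and 0.40 after centring. Stricter thresholds and centring lower these values by construction. No paired analysis was possible because only 1 table was used, which gives a summary per region and nothing by library, and the replicate block, leaving out each library and DESeq2 were not run for that reason.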
